A study of Mus musculus with 22 samples.

Results

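The transforming growth factor beta (TGF-beta) signaling genes were followed across aging and a model of amyotrophic lateral sclerosis (ALS) in mouse spinal cord. The group comprised 10 of the 21995 genes in the count table, chosen by name: the ligands Tgfb1, Tgfb2 and Tgfb3, the receptors Tgfbr1 and Tgfbr2, the signal transducers Smad2, Smad3, Smad4 and Smad7, and the TGF-beta-induced matrix gene Tgfbi. All 10 were listed in the table, and all 10 passed the filter on low counts in both comparisons. RNA from whole spinal cords of C57BL/6 mice was sequenced from 8 young wild-type mice aged 3 to 4 months, 8 old wild-type mice aged 18 to 24 months, 3 SOD1-G93A mice aged 5 to 6 months and 3 wild-type controls aged 5 to 6 months. The SOD1-G93A mice were symptomatic and carry many copies of a mutant human SOD1 transgene, so they model 1 inherited form of ALS. The young and old mice were all male, whereas the SOD1-G93A and control groups each held both sexes, and the labels give no treatment. Young and old libraries were made with the Roche RNA KAPA HyperPrep kit, and SOD1-G93A and control libraries with Illumina TruSeq, so levels were compared only within an experiment.

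TGF-beta ligands are secreted in a latent form and, once released, bind the type II receptor Tgfbr2, which recruits and activates the type I receptor Tgfbr1. The active receptor phosphorylates Smad2 and Smad3, which join Smad4, enter the nucleus and change transcription, while Smad7 is induced by the pathway and inhibits the receptor. In the central nervous system, TGF-beta is known for keeping microglia, the resident macrophages, in their mature state, and for its part in astrocyte reactivity and scar formation.

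Total counts per library were 5078092 to 9358055 in young, 5664869 to 9145600 in old, 10693060 to 13219797 in control and 9675610 to 11872431 in SOD1-G93A mice. At these depths 3 counts correspond to 0.231 to 0.582 CPM, the counts of a gene scaled to a common library size, and each of the 10 genes lay far above that level in every library. The tissue was checked against defining markers: Snap25 of neurons, Chat of cholinergic neurons, Mbp of oligodendrocytes and Gfap of astrocytes each had at least 107 counts in every library. The mouse Sod1 row, which does not measure the human transgene as such, held 156, 156 and 168 CPM in controls and 296, 298 and 335 CPM in SOD1-G93A libraries. Libraries are numbered here only to name them. SOD1-G93A library 1 and old library 5 stood apart in the 6 Schwann cell and peripheral nerve markers, which summed to 118 CPM and 64.6 CPM against at most 16.1 CPM in each of the other libraries.

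Whether the 5 genes that were higher in both comparisons vary together was not tested, and their promoters are shown. They are RefSeq sequences on build GRCm38.p6, from a table that held 6 of the 10 genes. Each is printed on the gene's own strand and ends before the annotated start: Tgfb1 at chr7:25686752-25687001 on the plus strand, Tgfbr1 at chr4:47352972-47353221 on the plus strand, Tgfbr2 at chr9:116175364-116175613 on the minus strand, Smad3 at chr9:63757995-63758244 on the minus strand and Tgfbi at chr13:56609336-56609522 on the plus strand. Capitals mark the GC box (GGGCGG) and the PU.1 core (GAGGAA), each searched on both strands.
Tgfb1: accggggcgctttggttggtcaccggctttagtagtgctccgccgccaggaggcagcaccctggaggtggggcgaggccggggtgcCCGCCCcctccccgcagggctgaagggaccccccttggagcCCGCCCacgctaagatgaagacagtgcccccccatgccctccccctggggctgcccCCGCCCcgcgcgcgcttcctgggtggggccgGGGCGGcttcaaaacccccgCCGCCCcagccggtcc
Tgfbr1: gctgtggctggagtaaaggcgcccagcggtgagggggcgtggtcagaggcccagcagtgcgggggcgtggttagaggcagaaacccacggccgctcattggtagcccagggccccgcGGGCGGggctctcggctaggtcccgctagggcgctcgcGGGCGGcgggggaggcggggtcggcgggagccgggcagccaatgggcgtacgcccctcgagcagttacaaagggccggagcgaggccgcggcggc
Tgfbr2: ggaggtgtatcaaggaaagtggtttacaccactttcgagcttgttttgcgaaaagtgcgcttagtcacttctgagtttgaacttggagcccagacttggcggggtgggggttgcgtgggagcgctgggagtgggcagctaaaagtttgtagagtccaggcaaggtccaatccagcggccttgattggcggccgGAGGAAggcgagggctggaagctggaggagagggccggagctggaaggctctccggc
Smad3: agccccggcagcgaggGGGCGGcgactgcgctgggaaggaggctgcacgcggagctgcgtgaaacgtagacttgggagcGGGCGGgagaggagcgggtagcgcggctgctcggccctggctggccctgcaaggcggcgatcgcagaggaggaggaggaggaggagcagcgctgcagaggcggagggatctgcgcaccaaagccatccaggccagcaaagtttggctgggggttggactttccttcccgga
Tgfbi: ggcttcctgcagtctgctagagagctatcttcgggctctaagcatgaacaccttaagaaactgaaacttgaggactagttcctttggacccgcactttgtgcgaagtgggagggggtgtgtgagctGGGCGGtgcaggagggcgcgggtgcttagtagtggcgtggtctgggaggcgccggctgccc
The Tgfb1 window held 5 GC boxes, the Tgfbr1 and Smad3 windows 2 each, the Tgfbi window 1 and the Tgfbr2 window 0, and at least 1 GC box occurred in 32.7% of all 32851 windows of 250 bases. The single PU.1 core lay in the Tgfbr2 window, and 23.3% of all windows of that length held one. The AP-1 motif (TGANTCA) and the SMAD motif (CAGACA) were found in none of the 5 windows, against 6.75% and 17.1% of all windows of 250 bases. Bases G and C made up 75.2% of the Tgfb1 window, 74.8% of that of Tgfbr1, 69.2% of that of Smad3, 59.4% of that of Tgfbi and 58.4% of that of Tgfbr2, beside a median of 52.4% over all windows of 250 bases. The Tgfbi window has 187 bases, and of all windows of that length 22.2% held a GC box, 5.14% the AP-1 motif and 13.5% the SMAD motif. A match describes the letters only.

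To ask which of these genes change during normal aging, old mice were compared with young mice. Tgfb1, Tgfbr1, Tgfbr2, Smad3 and Tgfbi were higher in old spinal cords, with fold changes of 1.23 for Smad3 to 2.43 for Tgfb1, and none of the 10 genes was lower. Over the 10 genes the log2 fold change had a median of 0.25, beside -0.0027 over all 13647 genes tested. At an adjusted p under 0.05, 13.5% of all tested genes were higher in old mice and 12.9% were lower, whereas 5 of the 10 genes were higher and 0 lower. Of these, only Tgfb1 also exceeded a log2 fold change of 1, a pair of thresholds that 2.18% of all genes passed upward. The old libraries lay wholly above the young libraries for 3 of the 10 genes (Tgfb1, Tgfbr1 and Tgfbr2), as they did for 3.66% of all genes tested. Spinal cord is a mixture of cells, and in these data more cells of a type cannot be told apart from more RNA per cell.

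To ask the same of ALS, SOD1-G93A mice were compared with their controls. Tgfb1, Tgfb2, Tgfbr1, Tgfbr2, Smad3 and Tgfbi were higher in SOD1-G93A spinal cords, by 2.02-fold for Tgfb2 to 4.68-fold for Tgfb1, and again none was lower. Among all 14386 genes tested, 18.4% were higher and 15.5% lower at an adjusted p under 0.05, beside 6 and 0 of the 10 genes. The same 6 genes also exceeded a log2 fold change of 1, which 8.5% of all genes did. Tgfb2, Smad3 and Tgfbi lay close to that line: with limma on the deposited log2 FPKM values they were at 0.78, 0.90 and 0.92, leaving 3 genes past both thresholds (Tgfb1, Tgfbr1 and Tgfbr2). Without SOD1-G93A library 1, Smad3 (0.90) and Tgfbi (0.92) fell under it, leaving 4, and with each of the other libraries left out in turn the count was 5 or 6. SOD1-G93A libraries lay wholly above control libraries for 7 of the 10 genes, the 6 named and Smad7, beside 25.7% of all genes tested. Log2 fold changes had a median of 1.03 over the 10 genes and 0.0031 over all genes. No gene of the group changed in opposite directions in the 2 comparisons at an adjusted p under 0.05.

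**Figure D1:**
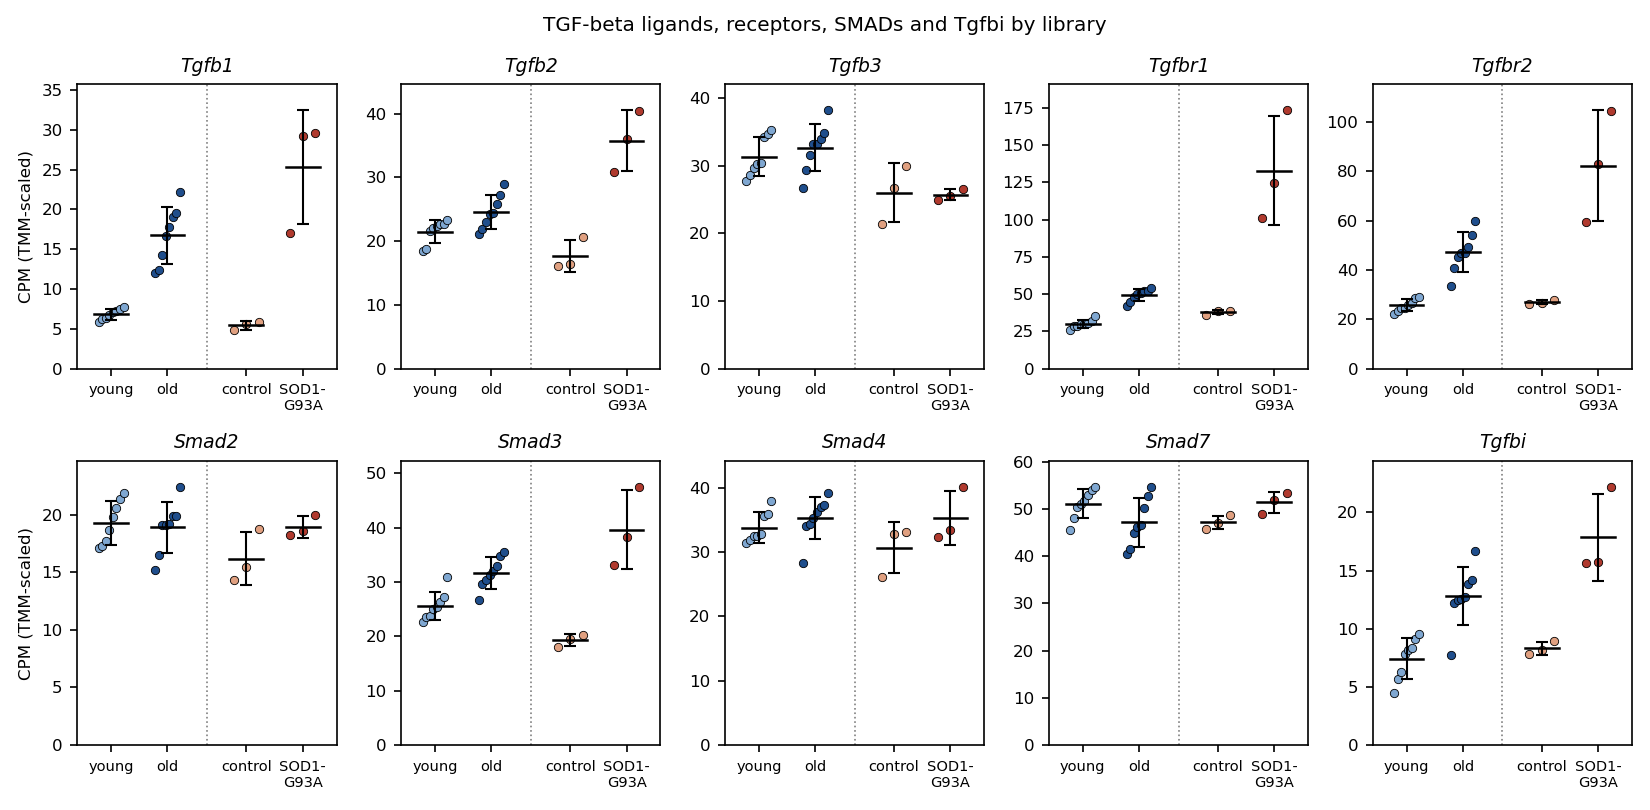
CPM, scaled by TMM library sizes, of each of the 10 genes in each library, with a dotted line between the 2 experiments. Points are libraries, horizontal bars the group means and error bars 1 SD (n = 8, 8, 3 and 3). The old points of Tgfb1, Tgfbr1 and Tgfbr2 lie wholly above the young points, while Tgfb3, Smad2 and Smad4 overlap in both experiments.

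Among the ligands, Tgfb1, the isoform made by microglia and other immune cells, showed the largest fold change of the group in both comparisons. In young mice Tgfb1 ranged from 5.82 to 7.79 CPM with a median of 6.88, and in old mice from 12.03 to 22.2 CPM with a median of 17.2. Every old library was above every young one, and the lowest old value, in old library 6, exceeded the highest young value. Its log2 fold change was 1.28 with a standard error (SE) of 0.12, or 2.43-fold (edgeR's quasi-likelihood test, adjusted p = 3.42e-08). In controls Tgfb1 was 4.84, 5.56 and 5.88 CPM, and in SOD1-G93A mice 17.0, 29.2 and 29.7 CPM. The SOD1-G93A values thus fell into a pair near 29 CPM and a lower library, library 2, that was still above all controls. Tgfb1 was 4.68-fold higher, a log2 fold change of 2.23 (SE 0.23), with an adjusted p of 0.000329 by edgeR's quasi-likelihood test.

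Tgfb2, a ligand made by neurons and glia, differed in one comparison. Young libraries held 18.4 to 23.4 CPM (median 22.2) and old libraries 21.2 to 29.0 CPM (median 24.3). These ranges overlapped, with 5 of the 8 old libraries above the highest young one. The log2 fold change of 0.20 (SE 0.07) narrowly missed the threshold in edgeR's quasi-likelihood test (adjusted p = 0.0515), and it passed with library totals as the only scaling (adjusted p = 0.0441), with at least 10 counts required in every library (adjusted p = 0.0476), and with young library 6, old library 2 or old library 8 left out (adjusted p 0.0312 to 0.114 over the 16 fits that left out 1 library). Over the 7 alternative fits of all libraries the adjusted p ran from 0.0441 to 0.253. In the ALS experiment the controls held 16.1, 16.4 and 20.6 CPM and the SOD1-G93A libraries 30.8, 36.0 and 40.4 CPM. The groups did not overlap, and Tgfb2 was 2.02-fold higher, a log2 fold change of 1.02 (SE 0.14), with an adjusted p of 0.00135 by edgeR's quasi-likelihood test. On GENCODE M21, Tgfb2 overlaps an antisense gene, Gm29491, and the sources used here do not state whether the counting used strand.

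Tgfb3, the third ligand, did not pass the test in either comparison. It ranged from 27.7 to 35.3 CPM in young and from 26.8 to 38.2 CPM in old libraries, and the log2 fold change was 0.06 (95% interval -0.09 to 0.20). Control libraries held 21.4, 26.7 and 30.0 CPM. SOD1-G93A libraries held 25.0, 25.5 and 26.6 CPM, all within the range of the controls. The log2 fold change there was -0.02 (95% interval -0.32 to 0.28, edgeR's adjusted p = 0.922), and its sign turned under other scalings. Tgfb3 overlaps the opposite-strand gene Ttll5, with the same limit on strand.

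Both receptors rose in both comparisons. Tgfbr1, the type I receptor kinase, ranged from 25.8 to 35.3 CPM (median 30.0) in young and from 42.3 to 54.3 CPM (median 50.4) in old libraries. All 8 old libraries were above all young ones. Tgfbr1 was 1.64-fold higher with age, a log2 fold change of 0.72 (SE 0.06), with an adjusted p of 9.41e-09 by edgeR's quasi-likelihood test. Controls held 36.1, 38.3 and 38.5 CPM, and SOD1-G93A libraries held 101, 124 and 173 CPM. The controls lay close together and the SOD1-G93A libraries spread widely, with library 1 highest. The log2 fold change was 1.82 (SE 0.18), or 3.54-fold (edgeR's quasi-likelihood test, adjusted p = 0.000271).

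Tgfbr2, the type II receptor that binds the ligand first, had the same lowest and highest SOD1-G93A libraries as Tgfbr1, but not the same control libraries. Tgfbr2 ranged from 22.2 to 28.9 CPM (median 25.3) in young and from 33.3 to 60.0 CPM (median 47.0) in old libraries, without overlap. This was a 1.83-fold rise, a log2 fold change of 0.88 (SE 0.09), with an adjusted p of 1.42e-07 by edgeR's quasi-likelihood test. In controls Tgfbr2 was 26.2, 26.7 and 27.9 CPM, and in SOD1-G93A mice 59.4, 83.2 and 104 CPM. The lowest SOD1-G93A library was again library 2 and the highest library 1. Tgfbr2 was 3.06-fold higher, a log2 fold change of 1.61 (SE 0.18), with an adjusted p of 0.000516 in edgeR's quasi-likelihood test.

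Of the SMADs, Smad3 was the one that passed the test. Smad3, which binds DNA at SMAD elements, ranged from 22.7 to 31.0 CPM (median 25.2) in young and from 26.6 to 35.6 CPM (median 31.7) in old libraries. The ranges overlapped, with 5 of the 8 old libraries above the highest young one, and the change was small: a log2 fold change of 0.30 (SE 0.07), or 1.23-fold (edgeR's quasi-likelihood test, adjusted p = 0.00285). On the deposited log2 (FPKM + 1) values the difference was 0.45 with limma, FPKM being fragment counts scaled by transcript length and library size. Controls held 18.0, 19.5 and 20.2 CPM and SOD1-G93A libraries 33.1, 38.3 and 47.5 CPM. These groups did not overlap, and the log2 fold change was 1.04 (SE 0.14), or 2.06-fold, with an adjusted p of 0.00121 by edgeR's quasi-likelihood test.

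The other three SMADs did not pass the test in either comparison. Smad2, the second receptor-activated SMAD, ranged from 17.1 to 21.8 CPM in young and from 15.2 to 22.4 CPM in old libraries, with a log2 fold change of -0.02 (95% interval -0.19 to 0.14). It was 14.3, 15.4 and 18.8 CPM in controls and 18.2, 18.6 and 20.0 CPM in SOD1-G93A libraries, and its log2 fold change was 0.22 (95% interval -0.08 to 0.53). Both pairs of groups overlapped. Smad4, the partner shared by all receptor-activated SMADs, ranged from 31.4 to 38.0 CPM in young and from 28.3 to 39.2 CPM in old libraries, with a log2 fold change of 0.06 (95% interval -0.08 to 0.19). It was 26.2, 32.7 and 33.2 CPM in controls and 32.3, 33.5 and 40.2 CPM in SOD1-G93A libraries, with a log2 fold change of 0.20 (95% interval -0.09 to 0.49). For Smad4, too, the groups overlapped in both experiments. Smad4 overlaps an opposite-strand processed pseudogene, AC132418.2, and whether the counting used strand is not stated.

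Smad7, the inhibitory SMAD that the pathway itself induces, ranged from 45.5 to 54.7 CPM (median 51.4) in young and from 40.4 to 54.7 CPM (median 46.4) in old libraries, with 3 of the 8 old libraries below the lowest young one. The log2 fold change was -0.11 (95% interval -0.24 to 0.01, edgeR's quasi-likelihood adjusted p = 0.186). In the ALS experiment it was 45.8, 47.1 and 48.7 CPM in controls and 49.0, 51.9 and 53.5 CPM in SOD1-G93A libraries. The SOD1-G93A libraries lay just above the controls, yet the log2 fold change of 0.13 (95% interval -0.06 to 0.31) did not pass edgeR's quasi-likelihood test (adjusted p = 0.271).

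Tgfbi, a secreted matrix protein with fasciclin domains, is named for its induction by TGF-beta. It ranged from 4.46 to 9.55 CPM (median 8.01) in young and from 7.71 to 16.7 CPM (median 12.6) in old libraries. The lowest old library, library 6, fell within the young range, and the other 7 lay above it. Tgfbi was 1.71-fold higher, a log2 fold change of 0.78 (SE 0.14) (edgeR's quasi-likelihood test, adjusted p = 0.000286). Controls held 7.83, 8.16 and 8.91 CPM, and SOD1-G93A libraries 15.7, 15.7 and 22.2 CPM. The groups did not overlap, and the log2 fold change was 1.11 (SE 0.18), or 2.15-fold, with an adjusted p of 0.00258 in edgeR's quasi-likelihood test.

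**Figure D2:**
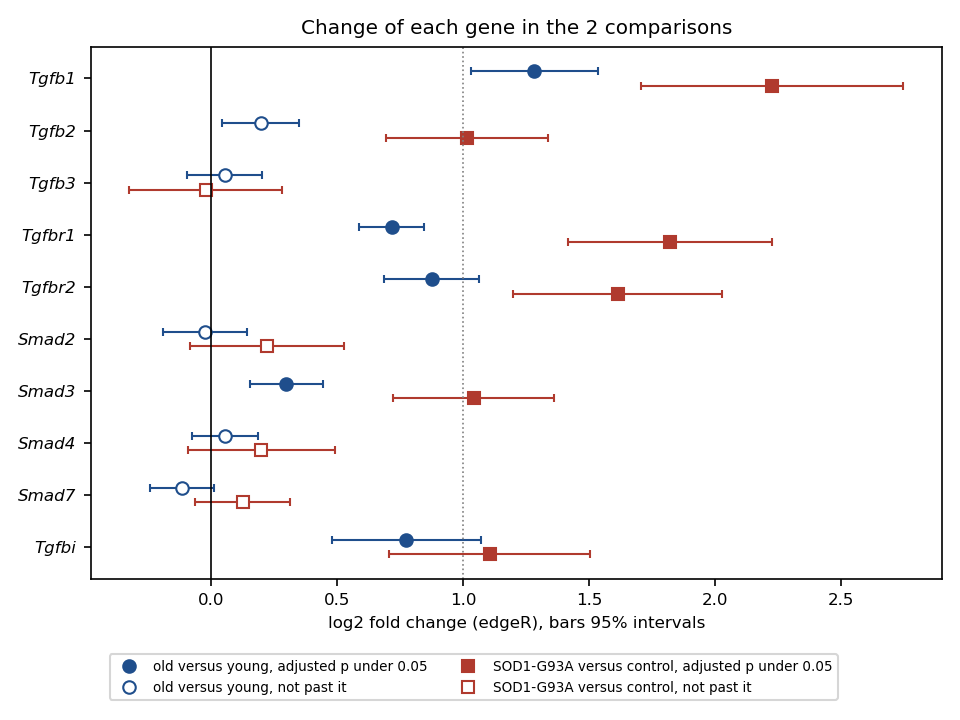
Log2 fold change of each gene from edgeR in old versus young mice (circles) and SOD1-G93A versus control mice (squares), with bars that are 95% intervals. Filled symbols have an adjusted p under 0.05, and the dotted line marks a log2 fold change of 1: the 6 filled squares lie above it, from 1.02 for Tgfb2 to 2.23 for Tgfb1, and the intervals of Tgfb2, Smad3 and Tgfbi include it.

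The 2 changes were then compared in 1 fit of all 22 libraries. The change in SOD1-G93A versus control was more positive than that in old versus young for 5 of the 10 genes (Tgfb1, Tgfb2, Tgfbr1, Tgfbr2 and Smad3) at an adjusted p under 0.05, as it was for 11.6% of all 14502 genes tested. The difference in log2 fold change was 1.08 (SE 0.15) for Tgfbr1, with an adjusted p of 2.57e-05 by edgeR's quasi-likelihood test. It was 0.91 (SE 0.25) for Tgfb1, 0.79 (SE 0.15) for Tgfb2, 0.71 (SE 0.14) for Smad3 and 0.71 (SE 0.19) for Tgfbr2, with adjusted p values of 0.00722, 0.000294, 0.000672 and 0.00746 in the same edgeR fit. For Tgfbi the difference was 0.30 (SE 0.25, edgeR's adjusted p = 0.415). Without SOD1-G93A library 1, which had the highest Tgfbr2 and the peripheral nerve markers, the Tgfbr2 difference was 0.51 and missed the threshold (edgeR's adjusted p = 0.0569, the highest of a range from 0.000226 over the 6 fits that left out 1 library of the ALS experiment). Kit, sex and experiment coincide in this comparison and cannot be told apart from the disease and age contrasts.

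Levels were compared between genes on the FPKM scale, which accounts for transcript length. This scale did not always order libraries as CPM did: young library 7 had the lowest young Smad4 CPM (31.4) and the highest young Smad4 FPKM (18.7). For Tgfb1 in aging the fold of median FPKM was 2.91, beside 2.43 from the counts. In young mice Smad7 (median 13.3 FPKM) and Smad4 (12.3 FPKM) were highest, Smad2 (9.92 FPKM) and Tgfb3 (8.45 FPKM) followed, and Tgfb1 (2.97 FPKM) and Tgfbi (2.80 FPKM) were lowest. Neighbours in this order overlapped in range except Tgfb3 and Smad3 (5.63 FPKM). In old mice every neighbour overlapped the next, and Tgfb1, at 8.63 FPKM, stood beside Tgfbr2 (8.79 FPKM) and Smad3 (8.39 FPKM).

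In controls Tgfb1 was the lowest of the 10 genes (2.5 FPKM) and lay wholly below Tgfbi (2.86 FPKM). In SOD1-G93A mice the order was led by Tgfbr1 (21.0 FPKM), Tgfbr2 (13.9 FPKM) and Tgfb1 (13.1 FPKM), followed by Smad7 (12.99 FPKM), each overlapping the next. Smad4 (9.67 FPKM) lay wholly above Smad2 (7.69 FPKM), and the 5 lower genes were not separated from their neighbours, with Tgfbi lowest at 5.76 FPKM.

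**Figure D3:**
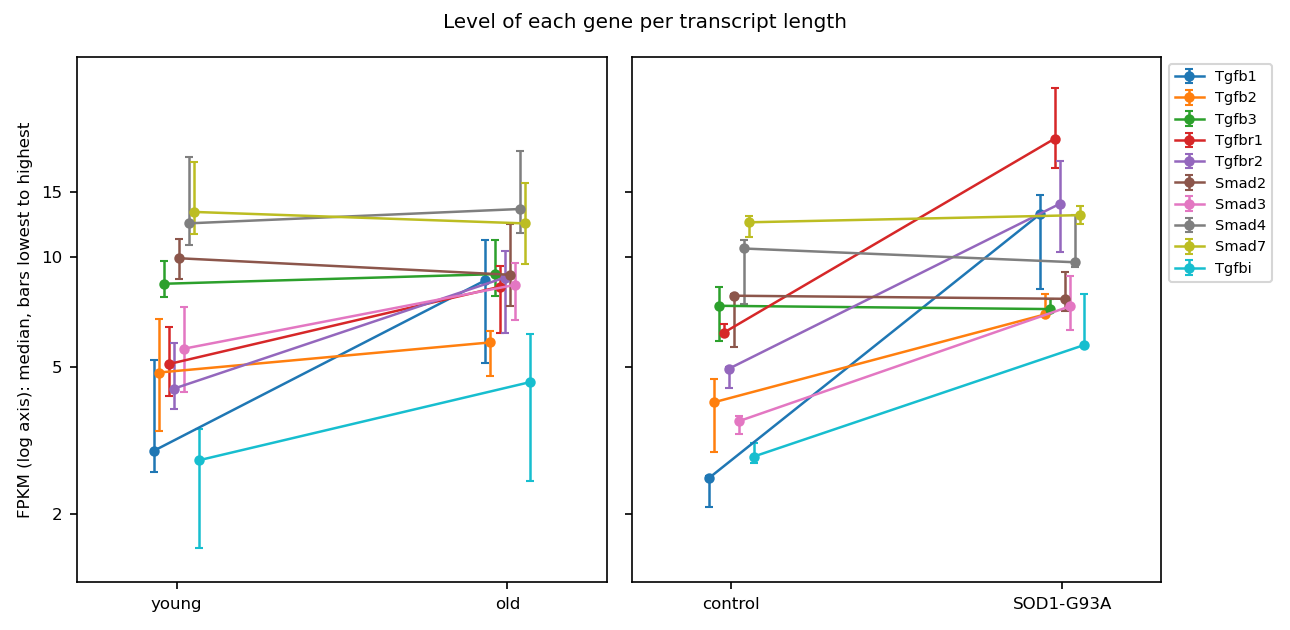
FPKM of each gene on a log axis, recovered from the deposited log2 values, in the aging experiment (left) and the ALS experiment (right). Points are group medians, bars run from the lowest to the highest library and lines join the groups of an experiment; Tgfb1 moves from 2.5 FPKM in controls, the lowest of the 10, to 13.1 FPKM in SOD1-G93A mice.

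Most microglial markers were also higher in both comparisons, and their part in the result was not tested. Of 19 microglial markers, 17 were higher and 0 lower in old mice, and 16 were higher and 0 lower in SOD1-G93A mice. Csf1r, the receptor for colony stimulating factor 1, had a log2 fold change of 0.69 in aging and 1.79 in ALS, and Cx3cr1, the fractalkine receptor, of 0.91 and 1.91. The purinergic receptor P2ry12 did not pass the test in either (0.05 and 0.13), and Tmem119 passed it in aging alone (0.54, edgeR's adjusted p = 0.00141, and 0.53 in ALS, adjusted p = 0.0599). P2ry13 had log2 fold changes of 0.71 and 1.26.

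The 19 markers summed to 543 to 598 CPM in young, 951 to 1630 CPM in old, 563 to 675 CPM in control and 2480 to 4885 CPM in SOD1-G93A libraries. Old library 6, the lowest old library for Tgfb1, Tgfbr1, Tgfbr2 and Tgfbi, also had the lowest microglial sum of the old group (951 CPM). SOD1-G93A library 2, the lowest of its group for 8 of the 10 genes, had the lowest microglial sum of its group (2480 CPM), and library 1 the highest (4885 CPM). The 9 astrocyte markers summed to 8066 to 8814 CPM in young, 9110 to 9955 CPM in old, 7515 to 8179 CPM in control and 13193 to 19969 CPM in SOD1-G93A libraries. The 14 neuronal markers summed to 4868 to 4926 CPM in control and 2357 to 3802 CPM in SOD1-G93A libraries, and 10 of them were lower. In young and old libraries the neuronal sums overlapped, at 4273 to 4808 CPM and 3819 to 5219 CPM. Old library 6 also had the lowest astrocyte sum (9110 CPM) and the highest neuronal sum (5219 CPM) of the old group, and its highest Tgfb2. SOD1-G93A library 2 likewise had the lowest astrocyte sum (13193 CPM) and the highest neuronal sum (3802 CPM) of its group. Counts over all genes also set both libraries apart from most of their group. The chi-square over degrees of freedom was 10.1 to 30.1 between old library 6 and the other old libraries. Between those others it was at most 11.5. It was 28.4 and 15.4 between SOD1-G93A library 2 and libraries 1 and 3, which differed by 8.22. Which cell type goes with the low values of old library 6 and SOD1-G93A library 2 was not tested.

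The 9 T and B cell markers in the table summed to at most 3.41 CPM and the 6 skeletal muscle markers to at most 4.44 CPM in any library. The 10 border macrophage and monocyte markers summed to 3.30 to 6.36 CPM in young, 4.57 to 10.3 CPM in old, 2.07 to 4.63 CPM in control and 9.97 to 19.6 CPM in SOD1-G93A libraries, and 2 of the 4 tested in ALS were higher. The 9 endothelial markers summed to 277 to 323 CPM over all 4 groups. Of the 8 fibroblast and meningeal markers tested in aging 1 was lower, and of the 9 tested in ALS 1 was higher. The 5 oligodendrocyte precursor markers summed to 406 to 491 CPM in young and 346 to 378 CPM in old libraries. Of these 5 markers, 3 were lower and 0 higher in aging, and 2 were higher and 0 lower in ALS. Of the 9 oligodendrocyte markers 1 was higher and 4 lower in aging, and 1 was higher and 0 lower in ALS. Of the 9 mural markers 1 was higher and 1 lower in aging, and 5 were higher and 1 lower in ALS, where 4 of the 5 ependymal markers tested were higher too.

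Each gene was next expressed relative to the summed CPM of the 19 microglial markers, as a log2 ratio per library. In aging, the ratio of Tgfb1 differed by -0.05 between old and young (exact two-sided permutation test, p = 0.657, 8 against 8), from a mean of -6.38 ± 0.15 (SD) in young to -6.42 ± 0.26 in old. The ratio of Tgfbr2 fell by 0.45, that of Tgfbr1 fell by 0.61 and that of Smad3 fell by 1.01, each with the old libraries wholly below the young ones (exact permutation p = 0.000155, the smallest that 8 against 8 can give). For Tgfbi the ratio fell by 0.52 (exact permutation p = 0.00311). Ratios of the 5 genes that had not passed the test by themselves fell by 1.12 for Tgfb2 to 1.44 for Smad7. A ratio shows unequal change only. The marker sum itself rose without overlap, so the ratio of a gene with steady CPM falls by construction. For Smad2, for example, the ratio fell by 1.35 while the log2 fold change was -0.02. These falls and their p-values therefore do not show that a gene itself fell. All 20 ratios, 10 in each comparison, were tested without adjustment.

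In ALS the ratio of Tgfb1 was -6.82 ± 0.05 (SD) in controls and -7.19 ± 0.18 in SOD1-G93A mice, a difference of -0.36. The other ratios differed by -0.76 for Tgfbr1 to -2.55 for Tgfb3. For all 10 genes the SOD1-G93A libraries lay below the controls, with p = 0.1 in the exact permutation test, the smallest that 3 against 3 can reach. The marker sum rose without overlap here too, so a gene with steady CPM again falls by construction. These ratios depend on which markers are summed. With C1qa, C1qb, C1qc, Ctss, Trem2 and Tyrobp left out of the sum, the Tgfb1 ratio was higher by 0.39 in old mice (exact permutation p = 0.00249) and by 0.22 in SOD1-G93A mice (exact permutation p = 0.2), and those of Tgfbr1 (-0.17), Tgfbr2 (-0.02) and Tgfbi (-0.09) no longer differed at p under 0.05 in aging by the exact permutation test.

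**Figure D4:**
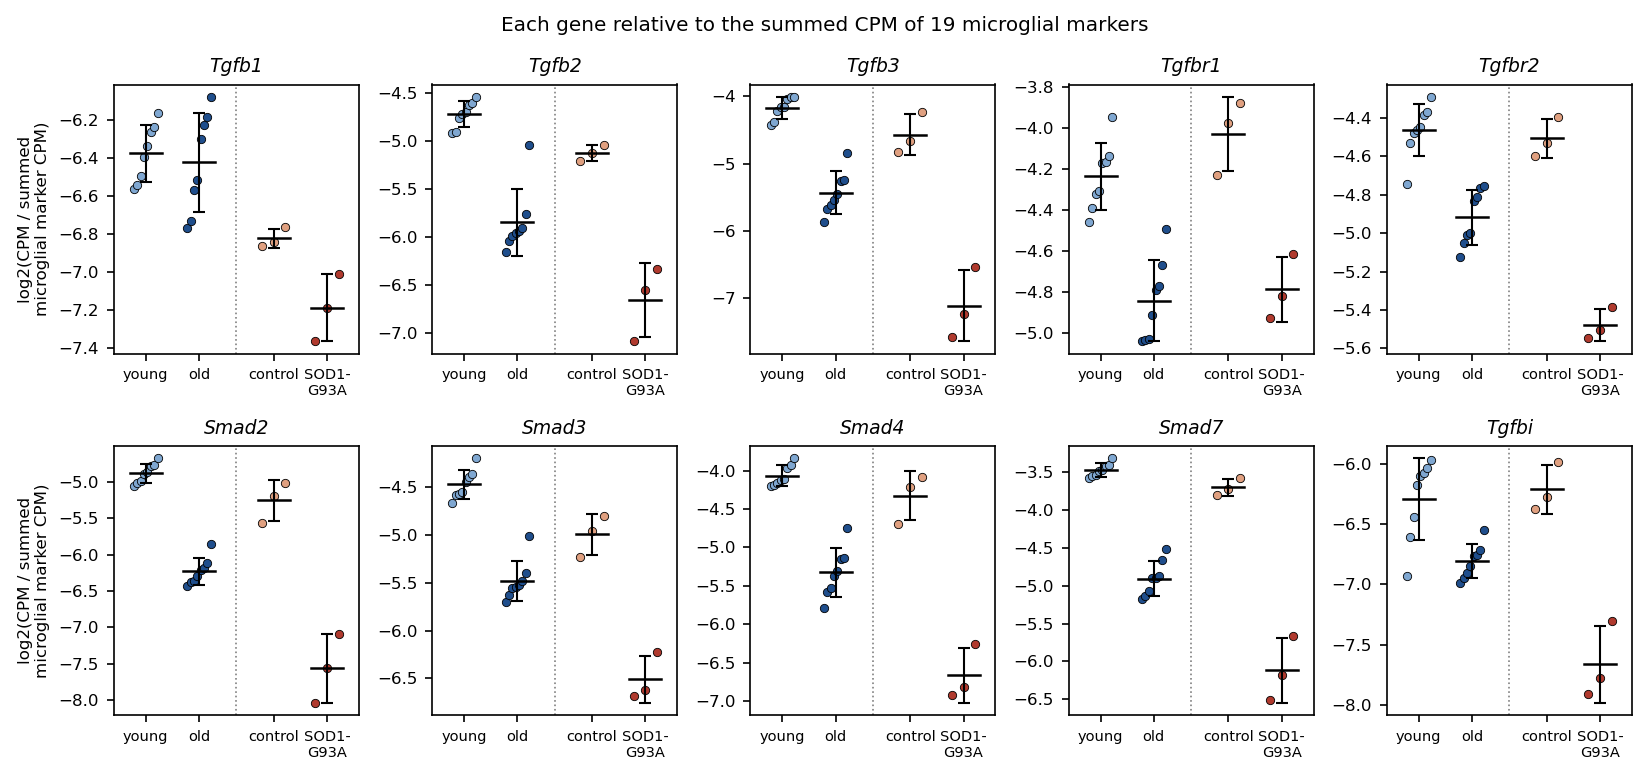
Log2 ratio of each gene's CPM to the summed CPM of 19 microglial markers in each library, on an axis of its own for each gene. Points are libraries, horizontal bars means and error bars 1 SD; the old and young points of Tgfb1 overlap (means -6.42 and -6.38), whereas those of Smad7 are apart by 1.44. The marker sum rose without overlap, so a gene with steady CPM falls on this scale.

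The rest of the pathway was described from 9 lists that hold 161 other genes. Of these, 134 were tested in aging, where 38 were higher and 14 lower, and 143 in ALS, where 58 were higher and 16 lower. As shares, 28.4% were higher and 10.4% lower in aging, and 40.6% were higher and 11.2% lower in ALS. The median log2 fold change was 0.03 in aging and 0.36 in ALS. Most of the 38 genes higher in aging came from the TGF-beta-dependent microglial genes (11 of 18 tested) and the SMAD-induced target genes (10 of 24). Median log2 fold changes in aging lay between -0.16 and 0.03 for the lists of ligands, latency, receptors, SMAD regulators, the SMAD-independent arm and antagonists. The pooled share in aging therefore does not describe these lists. The count of 16 lower genes in ALS was unstable, at 6 to 10 without any 1 of the control libraries or SOD1-G93A libraries 1 or 3, and 21 without SOD1-G93A library 2. Background shares over all genes are those given above.

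Ligands of the wider TGF-beta family moved in both directions. In aging 3 of 13 tested were higher and 2 lower. Bmp6, a bone morphogenetic protein, ranged from 3.64 to 6.08 CPM (median 5.45) in young and from 6.17 to 10.2 CPM (median 8.40) in old libraries, without overlap, a log2 fold change of 0.74 (SE 0.13, edgeR's adjusted p = 0.000148). Lefty1, a Nodal antagonist, was low, at a median of 0.843 CPM in young and 2.32 CPM in old libraries (log2 fold change 1.56, SE 0.35). In young libraries 3 counts correspond to 0.329 to 0.582 CPM, so this fold change rests on few counts. Gdf10 fell, from a median of 4.90 to 3.21 CPM in aging, and from 7.66, 7.68 and 8.26 CPM in controls to 1.61, 2.29 and 3.12 CPM in SOD1-G93A libraries (log2 fold change -1.75, SE 0.25, edgeR's adjusted p = 0.00169). In ALS 4 of 16 were higher and 2 lower, and Bmp6 was among the higher (log2 fold change 1.07, edgeR's adjusted p = 0.0138). Gdf15, a stress-induced family member, had at most 1 count in a control library and 1.21, 4.03 and 4.66 CPM in SOD1-G93A libraries, at least 12.9-fold higher than the level of 3 counts per control library.

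Of 16 tested genes of TGF-beta latency and activation, 2 were higher and 1 lower in aging, and 9 were higher and 2 lower in ALS. Itgb5, an integrin subunit that takes part in ligand activation, ranged from 51.3 to 66.8 CPM in young and from 77.4 to 128 CPM in old libraries, and it was higher in both comparisons (log2 fold changes 0.85, SE 0.09, and 1.74, SE 0.21). Thbs1, which encodes the activator thrombospondin 1, was higher in ALS by 1.29 on the log2 scale (SE 0.21). The protease gene Mmp9 was 11.6, 12.9 and 15.2 CPM in controls and 3.22, 3.76 and 6.34 CPM in SOD1-G93A libraries, a log2 fold change of -1.59 (SE 0.25, edgeR's adjusted p = 0.00269). In aging Itgb8, the integrin subunit of latent TGF-beta activation on glia, fell by 0.25 on the log2 scale, and Ltbp3, a latent TGF-beta binding protein, rose by 0.13.

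Of 16 other receptors and co-receptors, 3 were higher and 1 lower in aging, and 4 were higher and 3 lower in ALS. Cd109, a co-receptor that dampens TGF-beta signaling, ranged from 5.58 to 7.35 CPM in young and from 17.1 to 33.2 CPM in old libraries, and was 4.63, 6.07 and 6.69 CPM in controls and 45.5, 94.5 and 129 CPM in SOD1-G93A libraries. It did not overlap between groups in either experiment, and its log2 fold changes were 1.98 (SE 0.12) and 3.95 (SE 0.37), with edgeR's adjusted p of 2.74e-11 and 0.000241. Acvr1c, a type I receptor also known as ALK7, fell in both (-0.70, SE 0.13, and -1.25, SE 0.19). The co-receptor betaglycan, Tgfbr3, rose by 0.37 in aging, and Rgma, a bone morphogenetic protein co-receptor, by 0.55 in ALS.

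Intracellular regulators moved in both directions. Among 23 tested SMADs, partners and regulators, 5 were higher and 7 lower in aging, and 5 were higher and 5 lower in ALS. Tgif1, a co-repressor of SMAD transcription, rose in both (log2 fold changes 1.23, SE 0.17, and 2.68, SE 0.32), and the endocytic adaptor Dab2 rose in ALS (1.73, SE 0.17). Zfyve9, which presents SMADs to the receptor, fell in both (-0.20 and -0.70), and the deubiquitinase Usp15 fell in aging (-0.37, SE 0.04). Of 9 genes of the SMAD-independent arm, Rhoa rose in both (0.27 and 0.57), Xiap fell in aging (-0.18), Tab2 rose (0.48) and Tab3 fell in ALS (-0.65), and the others did not pass the test.

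Among extracellular antagonists, 3 of 14 tested were higher and 1 lower in aging, and 7 of 15 were higher and 2 lower in ALS. Fmod, a matrix proteoglycan that binds TGF-beta, ranged from 7.63 to 10.4 CPM in young and from 17.6 to 30.3 CPM in old libraries, and was 7.49, 7.88 and 8.30 CPM in controls and 88.1, 219 and 228 CPM in SOD1-G93A libraries. Groups did not overlap in either experiment (log2 fold changes 1.36, SE 0.10, and 4.50, SE 0.36, with edgeR's adjusted p of 4.63e-10 and 0.000147). The protease inhibitor A2m, which also binds cytokines, rose in both (0.64 and 2.79), the bone morphogenetic protein antagonist Nbl1 rose in aging (0.65) and the proteoglycan Bgn in ALS (1.001).

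Of the SMAD-induced target genes, 10 of 24 tested were higher and 1 lower in aging, with a median log2 fold change of 0.26, and 15 of 28 were higher and 1 lower in ALS, with a median of 1.18. In aging 6 of them, and in ALS 14, were higher by more than 1 on the log2 scale. Vim, an intermediate filament gene of reactive glia, ranged from 49.9 to 71.9 CPM in young and from 132 to 355 CPM in old libraries, and was 55.3, 76.7 and 98.6 CPM in controls and 582, 1264 and 1330 CPM in SOD1-G93A libraries. It did not overlap between groups (log2 fold changes 2.29, SE 0.14, and 3.79, SE 0.34). Ccn1, a matricellular gene, rose by 1.76 and 3.82 on the log2 scale, and Tagln, an actin-binding protein gene, by 2.20 in ALS. Timp1, a metalloproteinase inhibitor, had 1 to 5 counts in each young library (0.113 to 0.707 CPM) and 3.39 to 7.04 CPM in old libraries, without overlap (edgeR's adjusted p = 1.41e-10), and the young level is too low for a fold change to be given. These genes respond to other signals too, and 5 of the 29 are also on the mural or fibroblast marker lists.

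Of 18 microglial genes known to depend on TGF-beta, 11 were higher and 0 lower in each comparison, with median log2 fold changes of 0.58 and 1.29. The other 7 did not pass the test in each. P2ry12 is on this list and passed in neither comparison (log2 fold changes 0.05 and 0.13). Tmem119, also on it, passed in aging (0.54) but not in ALS (0.53). In aging Olfml3, a matrix glycoprotein gene, and Cd33, a sialic acid receptor gene, rose by 1.17 and 1.19 on the log2 scale. In ALS the receptor gene Fcrls was 7.53, 8.07 and 11.7 CPM in controls and 107, 156 and 198 CPM in SOD1-G93A libraries, a log2 fold change of 4.08 (SE 0.26, edgeR's adjusted p = 8.14e-05). Pros1, which encodes protein S, rose there by 1.97. Since 9 of the 18 are on the microglial marker list, these counts and the marker counts above share genes.

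The fasciclin-domain relatives of Tgfbi are Postn, Stab1 and Stab2. Postn, which encodes periostin, was low but did not overlap between groups, at 0.565 to 1.41 CPM in young, 2.63 to 5.01 CPM in old, 0.854, 1.08 and 1.94 CPM in control and 10.2, 18.1 and 24.2 CPM in SOD1-G93A libraries. Its log2 fold changes were 1.82 (SE 0.22) and 3.75 (SE 0.39), with edgeR's adjusted p of 1.03e-06 and 0.000353. Stab1, a scavenger receptor, rose by 1.71 (SE 0.22) in ALS.

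**Figure D5:**
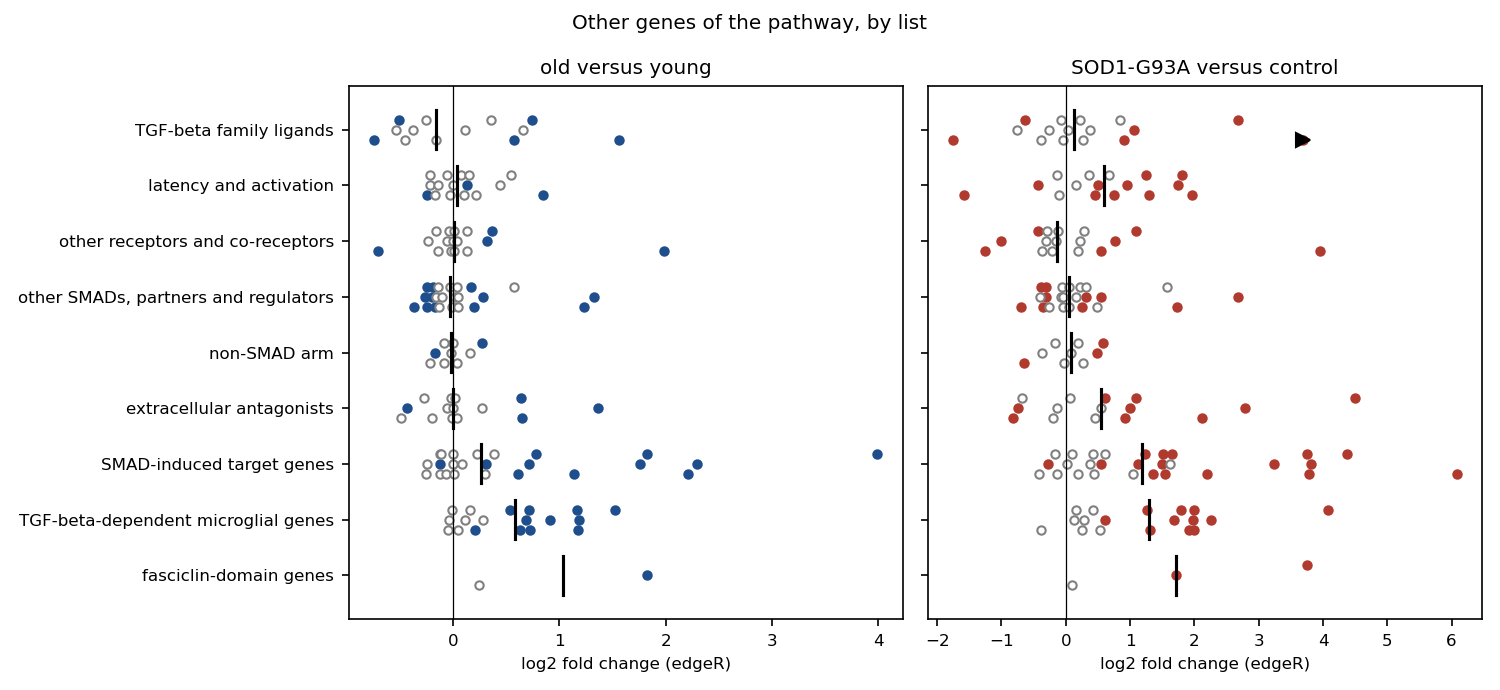
Log2 fold change of the tested genes of each list in old versus young (left) and SOD1-G93A versus control mice (right), on separate axes. Filled points have an adjusted p under 0.05, open points do not, vertical bars are list medians, and the black triangle is Gdf15 at its lower bound of 3.69; the medians of the SMAD-induced target genes are 0.26 and 1.18.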

How the data were processed

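RNA of whole spinal cords, 1 mouse per library, was sequenced from 8 young, 8 old, 3 SOD1-G93A and 3 control mice. The authors aligned reads with STAR to the mm10 genome and summarized them with RSEM on Ensembl annotation, with SAMtools 1.3. The authors deposited expected counts per gene, which were whole numbers and not normalized between libraries. The authors also deposited log2 values of FPKM plus a pseudocount of 1. Whether counting used strand is not given in the sources used here. Columns name a group and a library but no replicate number, so libraries were assigned to groups only. Within groups no pair of libraries was identical, and their counts differed beyond sampling noise (chi-square over degrees of freedom at least 2.36).

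The 2 comparisons were fitted separately with edgeR 4.0.16 (R 4.3.3): low genes were removed by filterByExpr (count minimum 10, total minimum 15), libraries were scaled by TMM, and the quasi-likelihood test was adjusted over every tested gene by Benjamini-Hochberg. Standard errors and 95% intervals (t quantile at the fit's degrees of freedom) come from that fit. The difference between comparisons was a contrast in 1 fit of 22 libraries. CPM use TMM library sizes. Alternatives were DESeq2 1.42.0, RLE factors, library totals alone, other filters, 1 fit of all libraries, limma 3.58.1 on the log2 FPKM values, a stricter threshold and each library left out. The fits were tested on simulated data. Sex was known per group, not per library, and was not a covariate. Ratios to microglial markers were compared by exact permutation tests (12870 arrangements for 8 against 8).

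Named genes were all 10 genes of the group, up to 3 genes with the smallest adjusted p per list and comparison among those that passed, and the first 5 microglial markers. A gene that this rule names is not reported here. Other markers are named only where their values stand beside a result. The members and lists were chosen with earlier results of these data known. Gene overlaps are from GENCODE M21 on GRCm38, and promoters from RefSeq on GRCm38.p6, cut to end before the gene start and searched with Python 3.11.15. Counts limit precision by counting error, and edgeR's p-values set a group difference against the spread between these mice, estimated with information from all genes.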

Additional observations from a re-analysis of the deposited data

Results flagged for a closer look

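Among 20 sets of 8 values, the young and the old libraries of each of the 10 genes, 1 held a library far from the rest by Dixon's gap criterion, which chance meets in about 1 of 20. It was Smad4 in old mice, where the lowest library held 28.3 CPM, the nearest 34.0 CPM and the highest 39.2 CPM, so that the gap made up 0.529 of the whole range. Without any single library, the log2 fold change of Smad4 in aging stayed between 0.03 and 0.10. Groups of 3 libraries were not examined in this way.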

How the results depend on the processing

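The 5 genes higher in aging and the 6 higher in ALS passed at an adjusted p under 0.05 under every alternative fit and with any 1 library left out, and no gene was called lower. Directions turned only for genes that did not pass: Smad2 in aging ranged from -0.0670 to 0.0170 (log2 fold change) with 1 library left out. Tgfb3 in ALS was 0.0227 with library totals alone, 0.0397 with limma on the log2 FPKM values and -0.15 to 0.10 with 1 library left out, and its difference between the comparisons ranged from -0.230 to 0.0161. The Tgfb1 ratio to microglial markers turned to 0.39 in aging and 0.22 in ALS with the shorter marker list. Only the marker sum differs between these lists, so within a comparison the ratio change of every gene shifts by the same amount. Genes of the group past both thresholds in ALS numbered 6, but 3 with limma, and 4 to 6 with 1 library left out. Other pathway genes called lower numbered 14 in aging, but 6 with limma and 7 at an adjusted p under 0.01. In ALS they numbered 16, but 8 with limma, 5 at an adjusted p under 0.01, and 6 to 21 with 1 library left out. The count was 6 to 10 without any of the 3 control libraries or SOD1-G93A libraries 1 or 3, and 21 without SOD1-G93A library 2, fits that hold 5 libraries. No paired analysis was possible because the columns carry no replicate numbers. For Smad2, Smad4 and Smad7, which did not pass the test, the 95% intervals of the change stand beside their values.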
